A study of Mus musculus with 6 samples.

Results

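The odorant receptor (OR) genes numbered Olfr1263 to Olfr1318 were followed in single-cell RNA-seq of the mouse main olfactory epithelium (MOE). The members were all gene symbols of the form Olfr plus a number within that range, with no suffix, which gave 44 receptors of 1116 OR genes and 24564 genes in the count files. A mature olfactory sensory neuron (OSN) was a cell with at least 10 Omp unique molecular identifiers (UMIs) and more Omp than Gap43. Its chosen OR was the OR gene with the most UMIs, at least 3 and without a tie. Of 5032 mature OSNs with a chosen OR in 6 libraries, 145 chose a member.

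In the 2 swap libraries both alleles were Cbx*/*, in which the Cbx1 coding sequence (HP1β) is exchanged for that of Cbx5 (HP1α) once Cre has acted, and Cre was present. Control 1 was wild type at Cbx1 with the same Cre, and control 2 carried Cbx*/* without Cre, so the 2 controls differ from each other both in the Cbx1 allele and in Cre. The tetOP2 library came from a gg8-tTA; tetOP2iresGFP mouse, in which the immature-neuron driver gg8-tTA (Gng8 promoter) switches on transgenic Olfr17 (P2), and the gg8tTA library carried the driver alone, with 1 library each. Nothing in the labels says how many animals a library pooled, so p-values measure the spread between libraries only, and the age of these mice is not given in the sources used here.

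Each mature OSN expresses one OR from one allele out of a large gene family, and axons of OSNs with the same OR converge in the olfactory bulb. OR genes lie in clusters along the chromosomes, and in OSNs the OR genes that were not chosen are silenced by heterochromatin. Most ORs are restricted to a zone of the epithelium along its dorsal to ventral axis, and dorsal OSNs are known for Nqo1 and Acsm4, ventral ones for Ncam2, Nrp2 and the nuclear factor I genes.

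All 44 members lay on chromosome 2 of GRCm38 (mm10). A first cluster held 7 members, Olfr1263 to Olfr1272 at chr2:90014932-90282573, and a second cluster 37, Olfr1275 to Olfr1318 at chr2:111230853-112157007, which lay 20.9 Mb further on. Coding sequences from GENCODE M21 were found for 43 members. Their pairwise nucleotide identity had a median of 62.7% over 903 pairs, 80.04% for the 40 pairs of direct neighbours and at most 64.4% between the clusters. The 7 receptors chosen by at least 5 control or 5 swap cells shared between 58.2% and 85.0% of their coding bases, and their most conserved 30 coding bases are shown to place them in one family. Capitals mark bases that differ from the majority of the 7, each stretch is coding strand 5′ to 3′, and 22 of the 30 positions were identical in all 7.
Olfr1264: tatgtggccatctgcaaaccCctGcaCtaT
Olfr1271: tatgtggccatctgcaaacctctTcattac
Olfr1297: tatgtggccatctgcaaaccActccattac
Olfr1301: tatgtggccatctgcaaaccActTcaCtaT
Olfr1307: tatgtggccatAtgTaaGcctctccattac
Olfr1312: tatgtggccatAtgTaaacctctccattac
Olfr1316: tatgtAgccatAtgTaaacctctccattac
The stretch lay at chr2:90021675-90021704 in Olfr1264, at chr2:90266039-90266068 in Olfr1271, at chr2:111621677-111621706 in Olfr1297, at chr2:111945059-111945088 in Olfr1307, at chr2:112042644-112042673 in Olfr1312 and at chr2:112130414-112130443 in Olfr1316, all on the minus strand, and at chr2:111754617-111754646 on the plus strand in Olfr1301.

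Among them 5 pairs of members shared over 95% of their coding bases, namely Olfr1282 with Olfr1286, Olfr1317 with Olfr1318, Olfr1306 with Olfr1307, Olfr1283 with Olfr1287 and Olfr1265 with Olfr1269. Reads from such pairs can be split or lost in counting, so values of these receptors are uncertain. The last aligned 30 coding bases are shown for 2 of these pairs because they lie closest to the 3′ end that the assay reads, with capitals where the partners differ.
Olfr1306: agacagctagttagctataggaaaacttcc
Olfr1307: agacagctagttagctataggaaaacttcc
Olfr1317: aggagactCtttGCtagggctttaAGtttc
Olfr1318: aggagactAtttATtagggctttaCAtttc
Olfr1306 (chr2:111911993-111912022, minus strand) and Olfr1307 (chr2:111944519-111944548, minus strand) were identical there, while Olfr1317 (chr2:112142841-112142870, plus strand) and Olfr1318 (chr2:112156847-112156876, plus strand) differed at 5 of 30 bases. Olfr1317 was chosen by no mature OSN and Olfr1318 by 4.

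The files held 32005196 to 63277934 UMIs per library, and 2563 to 5091 cells per library passed the minimum of 1000 UMIs and 500 genes. In control 2 only 57.5% of the barcodes passed, against 84.4% to 100% in the other libraries. Cbx1 stood at 1.19 and 2.87 counts per 1000000 UMIs (CPM) in mature OSNs of the swap libraries and at 81.1 and 142 CPM in the controls. Cbx5 stood at 85.03 and 105 CPM in swap and 19.6 and 42.05 CPM in control, so both genes followed the labels. Xist, which marks female cells, was at 1268 CPM in swap 1 and at most 0.643 CPM in swap 2 and both controls, so the swap libraries differed in sex. It was at 1329 CPM in gg8tTA and 1461 CPM in tetOP2, so gg8tTA also differed in sex from both controls. No more than 13 cell barcodes were shared by any 2 libraries. The 6 markers of sustentacular cells, the support cells of the epithelium, summed to 6331 CPM in member-choosing cells of control 2 and 6425 CPM in those of swap 2, against 6.12 to 293 CPM in the other 4 libraries.

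The members were chosen by 38 of 966 OR-choosing mature OSNs in control 1 (3.93%, exact Clopper-Pearson 95% interval 2.80% to 5.36%) and by 44 of 1185 in control 2 (3.71%, 2.71% to 4.95%). The share was 2.66% (16 of 601) in the gg8tTA library. These intervals cover counting error only. Over both controls 36 of the 44 members (81.8%) were chosen by at least 1 cell, and 68.8% of the 1072 other ORs were. The mean was 1.86 cells per member and 1.93 cells per other OR, and no member exceeded 6 cells while the most frequent OR of all had 18. As a measure of background, mature OSNs that chose another OR, or none, held a UMI of any member in 0.77% to 3.58% of cells. Among Cyp2g1-gated support cells a member was the top OR with at least 3 UMIs in 0 to 1.52% of cells. The share was highest in control 2 with 8 of 528, where 3.35% of all mature OSNs chose a member.

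Olfr1264, Olfr1297, Olfr1307 and Olfr1312 were each chosen by 6 control cells, and Olfr1301 and Olfr1316 by 5 each. Olfr1271 was the member with the most cells over all 6 libraries, 18, of which 4 were control cells. Of the 44 members, 11 were chosen by a single cell in the whole series. No mature OSN chose Olfr1272, Olfr1277, Olfr1279, Olfr1280, Olfr1282, Olfr1283 or Olfr1317. Early OSNs, gated by at least 10 Gap43 UMIs and no more Omp than Gap43, did choose Olfr1272, Olfr1277, Olfr1279, Olfr1282 and Olfr1317. Only Olfr1280 and Olfr1283 were found as the chosen OR in neither gate.

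Levels per choosing cell differed widely between members. Per 1000 UMIs of the cell, Olfr1263 was read at a median of 13.7 UMIs in 5 cells, Olfr1308 at 13.1 in 3 cells and Olfr1297 at 11.2 in 11 cells. Olfr1314 reached a median of only 0.836 in 5 cells, with a range of 0.403 to 1.12 that lay below the range of each of these 3. Olfr1264 had a median of 7.17, Olfr1271 of 7.44, Olfr1301 of 4.01, Olfr1307 of 4.71, Olfr1312 of 6.89 and Olfr1316 of 2.51. In unscaled UMIs the highest median was that of Olfr1318, 282 UMIs, in 4 cells with a median depth of 29115 UMIs, and per 1000 UMIs it was 8.72. These counts come from 3′ ends and were not scaled by gene length.

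Cells that chose a member scored towards the ventral side by the genes of the marker score. Zonal markers outside the score did not all go this way, as given below. The marker score was the mean standardized level of the ventral genes Nfia, Nfib, Nfix, Nrp2 and Ncam2, less that of the dorsal genes Nqo1, Acsm4, Robo2 and Sema3f, scaled on mature OSNs of the control libraries (of the gg8tTA library for the 2 gg8-tTA lines). Member cells averaged 0.621 in control 1, 1.10 in control 2 and 0.640 in gg8tTA. Cells with other ORs averaged 0.004, 0.010 and -0.030. In the same order the medians were 0.732, 1.15 and 0.429 for member cells and 0.282, 0.291 and 0.169 for cells with other ORs. Olfr17, which is no member, averaged 0.567 in 4 cells, 0.753 in 6 cells and 0.133 in 1 cell. A score above the mean of other ORs was thus not particular to members. The difference in means between member cells and cells with other ORs was 0.793 ± 0.260 (SD, n = 3 libraries). It was positive in 3 of 3 libraries (exact sign-flip permutation test, two-sided, p = 0.25, the smallest p that 3 differences allow). Members of the first cluster differed from other ORs by 0.931 ± 0.569 and those of the second by 0.771 ± 0.201, and the clusters differed from each other by less than the spread between libraries (-0.161 ± 0.375, second minus first).

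**Figure D1:**
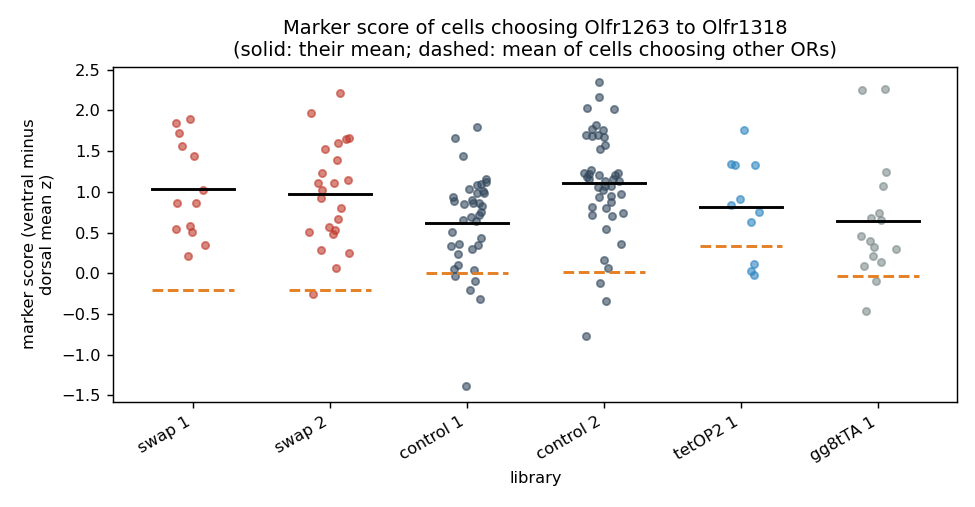
Marker score (ventral minus dorsal mean z) of each cell that chose a receptor from Olfr1263 to Olfr1318, by library; solid lines are the means of these cells and dashed lines the means of cells with other ORs. The solid line lies above the dashed line in all 6 libraries, by 0.617 in control 1 and by 1.09 in control 2.

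Receptors varied around that level. Among 23 members with at least 2 scored cells in the controls and gg8tTA, the SD between receptor means was 0.474 and the SD between cells of one receptor 0.538. Olfr1312 had the highest mean, 1.65 over 7 cells, and Olfr1305 the lowest, -0.19 over 2 cells. Nqo1, a quinone oxidoreductase of the dorsal zone, had a UMI in 9 of 98 member cells of these 3 libraries, 9.18%, against 39.6% of 2654 cells with other ORs. The single cell of Olfr1285 carried 43 of the 67 Nqo1 UMIs, and this receptor was called there from 3 UMIs only. The single Olfr1270 cell held another 15 Nqo1 UMIs beside 143 UMIs of Olfr1270.

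Genes other than ORs were compared between member cells and cells with other ORs, as UMIs summed per library over control 1, control 2 and gg8tTA with the library as a block. edgeR's quasi-likelihood test called 114 of 11569 genes (0.985%) at an adjusted p under 0.05 and a change beyond 0.58 on the log2 scale. Of these, 55 (0.475% of genes tested) were higher and 59 (0.51%) lower in member cells. Of the 114, 72 had the same direction in all 3 libraries. With DESeq2's size factors in edgeR the split was 70 higher and 47 lower. DESeq2 called 13, all of them among the 114. edgeR found little spread between these few sums beyond counting error, and its p-values may therefore be too small.

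Higher in member cells by both tools were Cd36, Tshz1, Dio2, Olig1 and Klkb1. Cd36, a scavenger receptor known from a subset of OSNs, stood at 140, 422 and 188 CPM in member cells of control 1, control 2 and gg8tTA, against 32.2, 106 and 52.7 CPM in other cells (log2 fold change 1.99 ± 0.12 SE, DESeq2 2.05). Tshz1, a zinc finger transcription factor, stood at 288, 811 and 371 CPM against 162, 238 and 151 (1.36 ± 0.11). Dio2, the deiodinase that activates thyroid hormone, stood at 28.3, 107 and 18.3 CPM against 10.6, 17.8 and 12.4 (2.05 ± 0.24). Olig1, a basic helix-loop-helix factor, stood at 118, 181 and 499 CPM against 109, 97.1 and 215 (0.80 ± 0.12). Klkb1, plasma prekallikrein, stood at 17.4, 40.8 and 73.2 CPM against 11.04, 9.59 and 26.01 (1.57 ± 0.28). Each of the 5 was higher in member cells of every one of the 3 libraries. Without control 2, Dio2 (1.22) and Klkb1 (1.23) were no longer called, and Cd36, Tshz1 and Olig1 were called whichever library was left out.

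On the lower side Nqo1 (-3.77 ± 0.15), Acsm4 (-4.09 ± 0.22), a medium-chain acyl-CoA synthetase, and Cartpt (-1.51 ± 0.10), a neuropeptide precursor, were called by both tools and whichever library was left out. Nqo1 stood at 129, 2.55 and 27.5 CPM in member cells and 616, 528 and 936 CPM in the others, and without control 1 its difference was -6.24. Cartpt stood at 822, 469 and 581 CPM against 1925, 1351 and 2111 CPM. Ppa1, 2810001G20Rik, Sult1d1, Faim2 and Fxyd2 completed the genes that were lower by both tools, of which Faim2 (-0.48) and Sult1d1 (-0.55) missed the fold limit without gg8tTA and Fxyd2 was not called without control 1 (adjusted p = 0.059). Sult1c1 (-2.90 ± 0.20) and Avp (-3.81 ± 0.28) ranked among the first 5 of edgeR, but DESeq2 gave an adjusted p of 1.00 for each. Without control 2, Sult1c1 was at -0.61 and not called, and Avp was at -6.26. Cd55, a complement regulator, was called by edgeR (1.29 ± 0.12) and not by DESeq2, and in gg8tTA it was lower in member cells (41.2 against 70.0 CPM).

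Of the 5 ventral markers of the score, edgeR called Nfia higher (0.83 ± 0.19), and the other 4 were not called. Among those not called, Nfib (0.50 ± 0.12) had an edgeR adjusted p of 0.006 and missed the fold limit. Of the 4 dorsal ones, Nqo1, Acsm4 and Robo2 (-0.87 ± 0.18) were called lower, and Sema3f was not called. Without control 2, Nfia was at 0.53 and Robo2 at -0.30, and neither was called. Member cells of control 2 held 77 Nfia UMIs. Of these, 13 came from an Olfr1312 cell of 29781 UMIs and 12 from an Olfr1316 cell of 38781 UMIs. The 2 cells held 16 and 34 UMIs of Nfib. Sustentacular markers were high in member cells of control 2, and whether support-cell RNA added to these levels was not tested. None of the 11 genes of odor transduction was called, with a median log2 fold change of -0.36 against -0.04 over all genes tested. In edgeR, Cngb1 (-0.52), Adcy3 (-0.48), Cnga4 (-0.47), Cnga2 (-0.39), Omp (-0.38), Gnal (-0.36) and Gng13 (-0.35) had an adjusted p below 0.05 and missed the fold limit. Each was lower in member cells of all 3 libraries, and DESeq2 called none of them. None of the 10 genes of receptor trafficking and choice was called (median -0.17), among them Lhx2, the Ebf factors and Rtp1. Of the 12 axon sorting genes, which include Robo2, 4 were called lower and 8 were not called. The other called ones were the ephrin Efna5 (-0.81 ± 0.12), the protocadherin Pcdh10 (-0.60 ± 0.12) and the adhesion gene Kirrel3 (-0.91 ± 0.26). Efna5 (-0.53) was not called without gg8tTA, Pcdh10 neither without gg8tTA (-0.46) nor without control 2 (-0.41), and Kirrel3 was lost whichever library was left out. A second list of zonal markers held Cd55 as a dorsal gene and Cidea, Rprm, Pdlim1, Avp and Ifi27 as ventral ones. Of these, Cd55 and Ifi27 (0.63 ± 0.16) were called higher, Avp lower, and Cidea, Rprm and Pdlim1 were not called. Rprm (0.57 ± 0.16) had an edgeR adjusted p of 0.041 and missed the fold limit. Cd55 and Avp thus went against the direction of the score. Ifi27 was not called without control 1 (adjusted p = 0.087) or without control 2 (log2 fold change 0.39). DESeq2 called none of Nfia, Robo2, Efna5, Pcdh10, Kirrel3, Cd55, Ifi27 and Avp.

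Cd36 was unevenly spread over the members. Of 47 mature OSNs that chose a receptor from Olfr1303 to Olfr1318, at the far end of the second cluster, 36 held a Cd36 UMI (76.6%). Of 60 cells that chose Olfr1275 to Olfr1302 in the rest of that cluster, 6 did (10.0%), and of 38 cells of the first cluster none did, which allows a share of up to 7.89%. Among cells with other ORs the share was 12.6%, at a median depth of 12276 UMIs per cell against 13802 for Olfr1303 to Olfr1318 and 13426 for Olfr1275 to Olfr1302. The split at Olfr1303 was set after these values had been seen, so no test was made of it.

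By library, Cd36 was found in 6 of 10 cells of Olfr1303 to Olfr1318 in control 1, 17 of 22 in control 2, 2 of 2 in swap 1, 5 of 5 in swap 2, 2 of 3 in tetOP2 and 4 of 5 in gg8tTA. For Olfr1275 to Olfr1302 the counts were 2 of 18, 0 of 15, 0 of 7, 3 of 8, 0 of 5 and 1 of 7 in the same order. Since cells of all 6 libraries had set the boundary, these counts describe it and are no repeat of it. By receptor, all 7 Olfr1312 cells, all 4 Olfr1318 cells and all 3 cells each of Olfr1306 and Olfr1308 held Cd36, and 12 of the 13 chosen receptors in the stretch had at least 1 such cell. Olfr1310, with 1 cell, had none. Cd36 was found in only some cells of other receptors of the stretch. It was in 3 of 7 Olfr1307 cells, 3 of 6 Olfr1316 cells, 1 of 2 Olfr1305 cells, 3 of 4 Olfr1303 cells and 4 of 5 Olfr1314 cells. The Olfr1307 cells held 4 Cd36 UMIs in all, at most 2 per cell, and 2 of the 7 held Dio2. Of the 7 Olfr1301 cells and 5 Olfr1288 cells none did, and of 11 Olfr1297 cells 1 did. Of the 18 chosen receptors of Olfr1275 to Olfr1302, 6 had at least 1 Cd36 cell. Among these, the single Olfr1275 cell held 30 Cd36, 4 Dio2 and 4 Cd55 UMIs, and the single Olfr1278 cell 3 Cd36 and 4 Cd55 UMIs. Both cells came from control 1, and both receptors lie at the opposite end of the second cluster.

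Cd36 is also read in support cells, 80.3% of which held a UMI here, and their RNA can enter a neuron's droplet. The 6 sustentacular markers summed to 6308 CPM in the cells of Olfr1303 to Olfr1318, 3060 CPM in those of Olfr1275 to Olfr1302, 77.8 CPM in the first cluster and 2121 CPM in cells with other ORs. In control 1, where they were at 46.1 CPM in member cells, 6 of 10 cells of Olfr1303 to Olfr1318 held Cd36. The median number of sustentacular UMIs was 1 in the 36 Cd36 cells of Olfr1303 to Olfr1318 and 223 in the 6 Cd36 cells of Olfr1275 to Olfr1302. Of 14 cells of Olfr1303 to Olfr1318 without a single UMI of the 6 sustentacular markers, 12 held Cd36 (85.7%). Of 31 such cells of Olfr1275 to Olfr1302, 2 did, and of 2293 such cells with other ORs 8.24% did. With at least 3 Cd36 UMIs required, the share was 63.8% for Olfr1303 to Olfr1318, 10.0% for Olfr1275 to Olfr1302 and 9.35% for other ORs. All these subsets are of the cells whose Cd36 values had set the boundary. The part of support-cell RNA in the Cd36 shares was not tested.

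Dio2 was divided in the same way by share of cells, and Tshz1 by level only. Dio2 was found in 32 of 47 cells of Olfr1303 to Olfr1318 (68.1%), in 1 of 60 cells of Olfr1275 to Olfr1302 and in 8.16% of cells with other ORs, and support cells held it in 5.06%. Tshz1 was found in all 47 cells of Olfr1303 to Olfr1318, but also in 41 of 60 cells of Olfr1275 to Olfr1302 (68.3%), 31 of 38 of the first cluster (81.6%) and 56.3% of cells with other ORs. Its level was 11.5 UMIs of every 10000 in cells of Olfr1303 to Olfr1318, against 1.13 for Olfr1275 to Olfr1302, 1.88 for the first cluster and 2.21 for other ORs. Cd55 was found in 78.7% of the cells of Olfr1303 to Olfr1318, in 11.7% of those of Olfr1275 to Olfr1302 and in 23.6% of cells with other ORs. In the first cluster Cd55 was mostly in cells of Olfr1271, 14 of 18, while Dio2 was in 3 of these and Cd36 in none. Nqo1 did not follow the division, with 5, 3 and 3 positive cells for Olfr1303 to Olfr1318, Olfr1275 to Olfr1302 and the first cluster. Cidea, a ventral gene of the second list, was counted in the controls and gg8tTA. It was found in 5 of 6 Olfr1297 cells and 5 of 5 Olfr1301 cells. For Olfr1307, Olfr1312 and Olfr1316 the counts were 2 of 7, 0 of 7 and 2 of 6. Not all receptors divided like this, with 0 of 3 for Olfr1302 and 2 of 2 for Olfr1308. Cells with other ORs held Cidea in 50.1%.

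**Figure D2:**
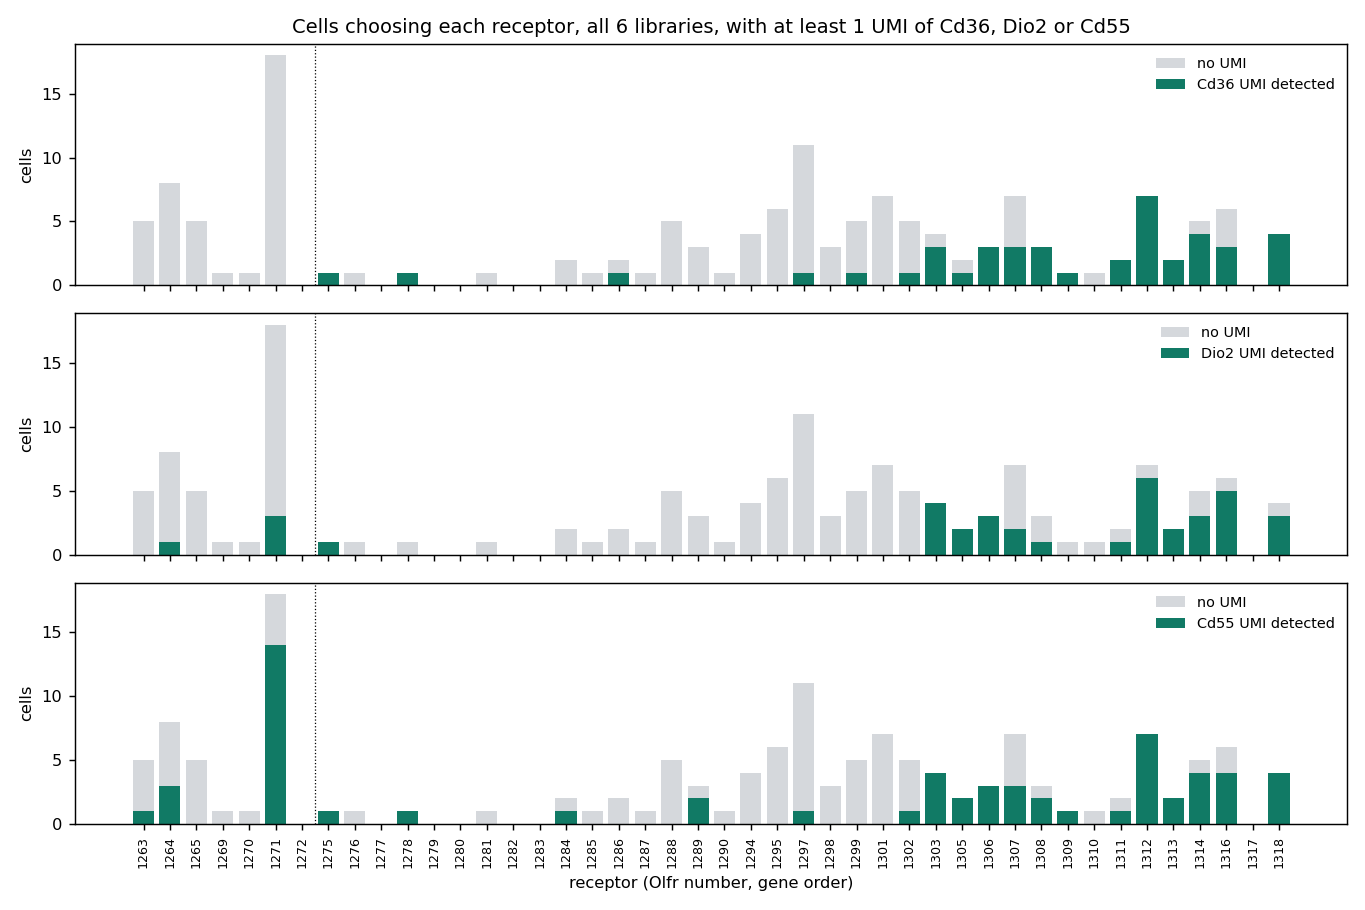
Number of mature OSNs that chose each receptor in all 6 libraries (bar height), in gene order on chromosome 2, with the cells that held at least 1 UMI of Cd36 (top), Dio2 (middle) or Cd55 (bottom) in green; the dotted line ends the first cluster. Green fills most of the bars from Olfr1303 onward for Cd36 (36 of 47 cells) and Dio2 (32 of 47 cells), and the Olfr1271 bar is mostly green for Cd55 alone (14 of 18 cells).

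Swap and control libraries were compared to ask whether the exchange of HP1β for HP1α altered how often these receptors were chosen. Members were chosen by 13 of 679 OR-choosing mature OSNs in swap 1 (1.91%, interval 1.02% to 3.25%) and by 23 of 955 in swap 2 (2.41%, 1.53% to 3.59%). The mean was 2.16% ± 0.349 in swap and 3.82% ± 0.156 in control (SD, n = 2 each), a difference of -1.66 percentage points. Both swap values lay below both control values. However, 2 against 2 libraries cannot give an exact permutation p below 0.333 (two-sided), which was the p obtained. The gg8tTA library, of another line and outside this comparison, stood between the groups at 2.66% (interval 1.53% to 4.29%). Of all OR UMIs in mature OSNs the members took 2.11% and 2.36% in swap and 3.37% and 3.17% in control, again without overlap.

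By cluster, the groups separated for the second cluster and overlapped for the first. The second cluster was chosen by 1.33% and 1.36% of OR-choosing cells in swap and by 2.90% and 3.12% in control (1.34% ± 0.025 against 3.01% ± 0.158, difference -1.67, exact permutation p = 0.333, the smallest possible). The first cluster was chosen by 0.589% and 1.05% in swap and 1.04% and 0.591% in control (difference 0.005, exact permutation p = 1.00). Within the second cluster Olfr1303 to Olfr1318 were chosen by 2 and 5 cells in swap and by 10 and 22 in control (0.409% ± 0.162 against 1.45% ± 0.581). Olfr1275 to Olfr1302 were chosen by 7 and 8 cells in swap and 18 and 15 in control (0.934% ± 0.137 against 1.56% ± 0.423). Groups did not overlap in either stretch, and each gave the smallest possible exact permutation p of 0.333. The boundary at Olfr1303 had been set after values of these same cells were seen, so these values describe the stretches and test nothing. How often other stretches of OR genes separate in this way was not examined. Whether the stretches differed in their change was not tested.

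**Figure D3:**
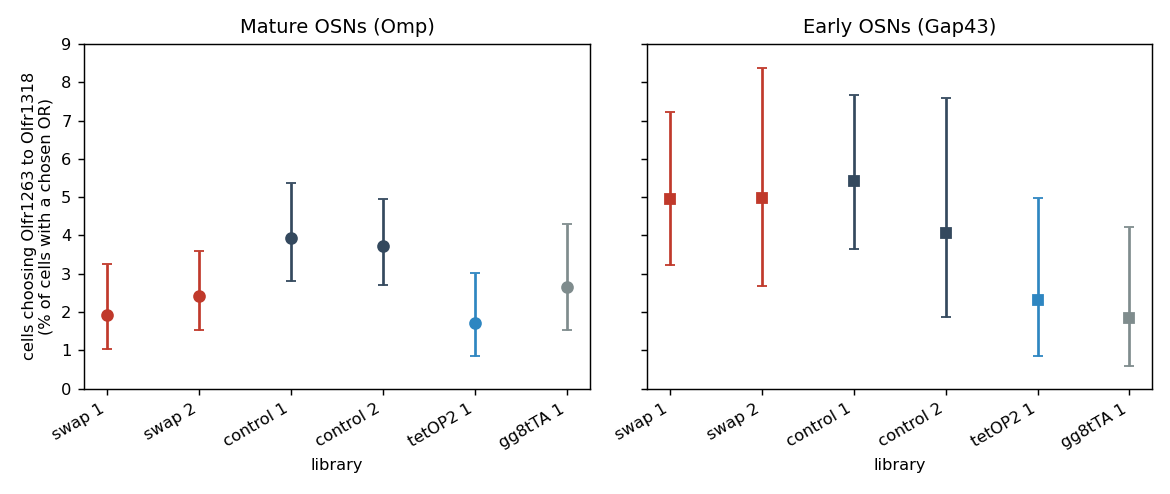
Share of OR-choosing cells that chose a receptor from Olfr1263 to Olfr1318 in mature (left) and early OSNs (right) of each library, in percent, with exact 95% Clopper-Pearson intervals. In mature OSNs the swap points (1.91% and 2.41%) lie below the control points (3.93% and 3.71%), and in early OSNs the 2 groups overlap.

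The number of different members chosen was lower in both swap libraries than in both controls. A lower share of member cells in itself gives fewer different members, and a drop beyond that was not tested. Without equal draws, different ORs of all kinds numbered 340 and 412 in swap and 530 and 589 in control. When 679 cells were drawn from each library, 11 and 10.4 members were found in swap and 21.1 and 18.2 in control (means of 1000 draws, difference -8.94, exact permutation p = 0.333). In all, 16 members were chosen in swap and 36 in control, none in swap only, where of the 1072 other ORs 509 were chosen in swap and 737 in control. The 20 members chosen in control alone accounted for 40 control cells. How many other ORs were chosen in control alone or in swap alone was not counted. These numbers come from 2151 OR-choosing cells in control and 1634 in swap, so they are not from equal cell numbers. In the second cluster 12 of 37 members were chosen in swap and 30 in control, and in the first cluster 4 of 7 and 6 of 7.

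Individual receptors rested on few cells. Those below were named for at least 5 cells over the control libraries, and Olfr1271 for at least 5 over the swap libraries. Such a choice favours a lower count in the other group, so the counts describe these receptors and test nothing. Olfr1307 was chosen by 2 and 4 control cells, Olfr1312 by 2 and 4 and Olfr1316 by 1 and 4, and none of the 3 by any of 1634 swap cells, which allows a share of up to 0.184%. In control 1 alone Olfr1316 had 1 cell and Olfr1307 and Olfr1312 had 2 each, so that these differences rest largely on control 2. Olfr1264 was chosen by 4 and 2 control cells and by 1 and 1 swap cells, and Olfr1301 by 2 and 3 and by 0 and 1. Olfr1297 was chosen by 4 and 2 control cells and by 2 and 1 swap cells. The counts of Olfr1297 overlapped between groups and those of Olfr1264 and Olfr1301 did not.

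Olfr1271, named for its swap cells, stood on the other side. It was chosen by 2 and 7 swap cells and by 2 and 2 control cells, 0.514% ± 0.310 against 0.188% ± 0.027 of OR-choosing cells (exact permutation p = 0.333). Without Olfr1271 the first cluster was chosen by 0.304% of swap and 0.625% of control cells, and all other members together by 1.65% and 3.64%. The direction for the first cluster thus rested on this one receptor, and for all members it did not. The removal of Olfr1271 was chosen after its counts had been seen.

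**Figure D4:**
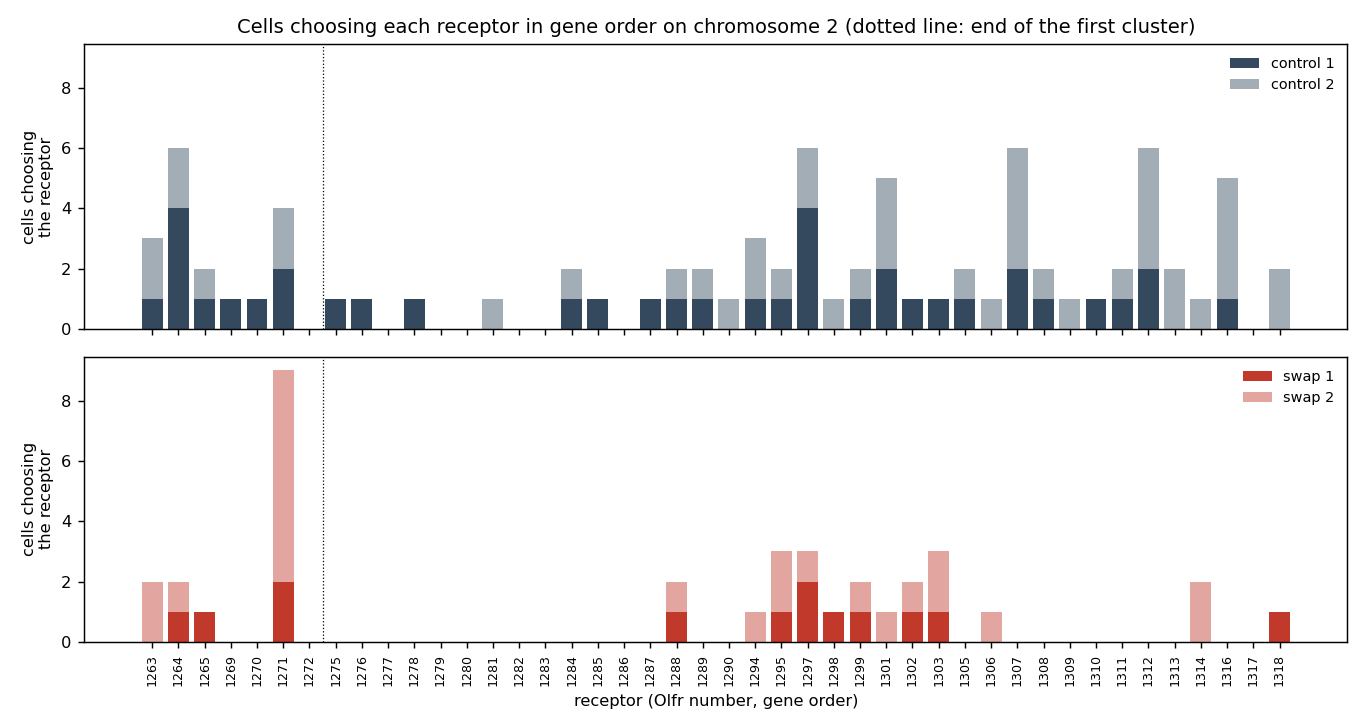
Number of mature OSNs that chose each receptor in the controls (top) and swap libraries (bottom), in gene order on chromosome 2, with replicates stacked; the dotted line ends the first cluster. The swap panel has its highest bar at Olfr1271 (9 cells) and no bar at Olfr1307, Olfr1312 and Olfr1316. These have 6, 6 and 5 cells in the control panel. The receptors named here were picked for their cell numbers in one of the groups. Control has 2151 cells with a chosen OR and swap 1634.

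The UMIs of each gene summed over mature OSNs gave 21 of the 44 members for testing after the filter on low counts. The other 23 were too low to test. edgeR called 0 of the 21, where it called 0 of 13420 genes in all (0%). Its unadjusted p was below 0.05 for 5 of the 21 members, for 174 of the 575 OR genes tested and for 304 of all genes. DESeq2 called 5 of the 21 and 182 genes (1.36%), all 5 members lower in swap. Among all 575 OR genes tested DESeq2 called 114 lower (19.8%), and 5 of 21 members is near that share. The members' median log2 fold change was -0.63 in edgeR, with 14 of 21 below 0 (66.7%). That of all tested ORs was -0.25, with 314 of 575 below 0 (54.6%).

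The 5 receptors were Olfr1284, Olfr1307, Olfr1308, Olfr1311 and Olfr1312. Olfr1312 stood at 16.8 and 25.5 CPM in the controls and 0 in both swap libraries (edgeR adjusted p = 0.179, DESeq2 4.9e-09). Olfr1308 stood at 16.1 and 9.72 CPM and again at 0 in both swap libraries (edgeR adjusted p = 0.205). Olfr1307 stood at 5.22 and 13.7 CPM in control and 0 and 0.07 CPM in swap. Olfr1311 stood at 8.40 and 4.05 CPM in control and 0 in swap, and Olfr1284 at 3.51 and 2.48 CPM against 0.10 and 0.07. Groups did not overlap for any of the 5. Since DESeq2 had picked them on these same libraries, that is no further support. Each held at most 1 UMI per swap library, so they passed the filter on low counts through the controls. In an edgeR fit on the number of choosing cells, the adjusted p was 0.466 for Olfr1307 and Olfr1312. It was 0.660 for Olfr1284, Olfr1308 and Olfr1311. The sums rest on 2 to 6 control cells each, and a sum cannot tell fewer choosing cells from less RNA per cell.

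Other members were at similar levels in both groups, uneven between replicates, or apart between the groups without a call. Olfr1271 stood at 13.2 and 46.6 CPM in swap and 13.4 and 11.1 CPM in control (log2 fold change 1.29 ± 0.65, edgeR adjusted p = 1.00; 0.11 without swap 2). Olfr1264 stood at 6.97 and 15.8 CPM against 24.7 and 14.8 (-0.79 ± 0.53), Olfr1297 at 23.3 and 16.1 against 36.0 and 12.1 (-0.29 ± 0.59) and Olfr1301 at 0 and 3.15 against 7.26 and 11.04 (-2.50 ± 1.67). Olfr1299 was higher in both swap libraries, 11.8 and 14.6 CPM against 8.73 and 6.84 (0.76 ± 0.32, adjusted p = 1.00). Olfr1303 had the largest rise of the members tested, 3.34 and 4.46 CPM in swap against 0.98 and 0 in control (3.06 ± 1.62). It was chosen by 3 swap cells and 1 control cell. Olfr1288 differed by 0.24 ± 0.35 and Olfr1295 by -0.19 ± 0.37. Olfr1316 was not tested and held 5 and 314 UMIs in the controls and 0 in both swap libraries.

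In cells that chose a member, its level overlapped between the groups. With cells thinned to 3000 UMIs the median of the chosen member was 19 and 16 UMIs in swap and 16 and 16.5 in control (exact permutation p = 1.00). At full depth the medians were 71 and 75 UMIs against 71 and 86.5. The difference was 1.25 UMIs after thinning and -5.75 UMIs before it.

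Swap cells that chose a member also scored towards the ventral side. They averaged 1.03 and 0.976 in swap and 0.621 and 1.10 in control, so the swap values lay between those of the controls (exact permutation p = 1.00). Cells with other ORs averaged -0.209 and -0.210 in swap and 0.004 and 0.010 in control. Nqo1 was found in 1 of 36 swap member cells (2.78%) and in 44.1% of 1598 swap cells with other ORs. In the fit of member cells against other cells within the 2 swap libraries edgeR called 13 of 11484 genes (0.113%), Nqo1, Acsm4 and Cartpt (-1.55 ± 0.25) among those lower. None of the genes called higher by both tools in the other fit was called there, with Cd36 at 0.01 ± 0.34, Tshz1 at 0.07 ± 0.20, Olig1 at -0.01 ± 0.25, Klkb1 at -0.09 and Dio2 at 1.504 ± 0.74. Cd55 was at 0.35 ± 0.25. Of the swap member cells 7 of 36 had chosen Olfr1303 to Olfr1318, against 37 of 98 in the other fit, and cells with other ORs held Cd36 in 17.1% in swap and 10.3% in control. The part of either in the difference was not tested.

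In early OSNs the groups overlapped. Members were chosen by 25 of 504 early OSNs with a chosen OR in swap 1 (4.96%), 13 of 261 in swap 2 (4.98%), 29 of 536 in control 1 (5.41%) and 9 of 221 in control 2 (4.07%). The swap values lay between the control values (4.97% ± 0.015 against 4.74% ± 0.946, exact permutation p = 1.00). Olfr1271 had 10 early cells in swap 1 and 2 in swap 2, against 2 in control 1 and none in control 2. Olfr1288 had 5 early cells in swap 1 and 1 in control 1, Olfr1277 had 4 in control 1, and Olfr1285 and Olfr1306 had 3 each there. Whether the difference between swap and control itself differed between early and mature OSNs was not tested.

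A second OR of at least 3 UMIs was found in 7 of the 145 member cells, and in 6 of these it was another member. Olfr1288 cells held 9, 4 and 9 UMIs of Olfr1289 in control 1, gg8tTA and swap 2, beside 69, 66 and 68 UMIs of Olfr1288. An Olfr1311 cell held 11 UMIs of Olfr1310, an Olfr1264 cell 3 UMIs of Olfr1263, and an Olfr1281 cell held 34 UMIs of Olfr1285 beside 38 of its own. The starts of the coding genes of Olfr1288 and Olfr1289 lay 4.65 kb apart on the plus strand, and those of Olfr1310 and Olfr1311 12.7 kb apart on the minus strand. Coding identity was 66.6% for Olfr1288 with Olfr1289 and 77.6% for Olfr1310 with Olfr1311, and both ends are shown with differing bases in capitals.
Olfr1288: gGctAagTAGaCAgGTtttaagTtCtAggg
Olfr1289: gCctGagACAaTGgAAtttaagCtTtTggg
Olfr1310: AGTcagTttgtTaattacaATaaAAtTtcT
Olfr1311: TCCcagCttgtGaattacaGGaaGGtCtcC
The stretches lay at chr2:111479684-111479713 and chr2:111484288-111484317 on the plus strand and at chr2:112008249-112008278 and chr2:112020917-112020946 on the minus strand, and they differed at 12 and 11 of 30 bases. A second OR was found in 0 to 12.5% of member cells per library and in 5.17% to 9.29% of cells with other ORs.

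In the tetOP2 library 376 of 646 OR-choosing mature OSNs chose Olfr17. Among all OR-choosing mature OSNs, members were chosen by 11 of 646 in tetOP2 (1.70%) and 16 of 601 in gg8tTA (2.66%), a difference of -0.96 percentage points (95% Newcombe interval -2.74 to 0.71). With Olfr17 cells left out the sign turned. Members were then chosen by 11 of the 270 others (4.07%) and in gg8tTA by 16 of 600 that did not choose Olfr17 (2.67%). The difference was 1.41 percentage points (95% Newcombe interval -1.003 to 4.64), and 0.31 when the chosen OR had to hold 80% of a cell's OR UMIs. Neither difference was detectable at this depth, and with 1 library per group there is no replicate check. Olfr1271 was chosen by 2 cells in tetOP2 and 3 in gg8tTA. Member cells of tetOP2 had a mean marker score of 0.820 and those of gg8tTA 0.640. Of 259 early OSNs in tetOP2 6 chose a member (2.32%), and of 273 in gg8tTA 5 did (1.83%).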

How the data were processed

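The authors deposited UMI counts per gene and cell barcode for 6 libraries, not normalized; they aligned and counted with Cell Ranger and kept intronic reads. The matrix headers of 4 libraries name software version 3.1.0 and the submitters' processing notes name mm10. Cells needed 1000 UMIs and 500 genes, and predicted doublets (simulated doublets among 15 nearest neighbours, 0.8% per 1000 cells) were removed. Gates, chosen ORs and scores are given with the results; early OSNs and support cells (at least 10 Cyp2g1 UMIs and more Cyp2g1 than Omp) were gated alike. Summed counts were tested with edgeR 4.0.16 (quasi-likelihood, TMM, filterByExpr, Benjamini-Hochberg) and DESeq2 1.42.0; OR genes were left out when member cells were compared with other cells. SEs of edgeR fold changes were taken from the F statistic. On simulated counts for 13420 genes of the swap comparison, edgeR recovered 70 of 200 changed genes with 11 false calls, and for 11569 genes of the member-cell comparison 151 of 200 with 7. In the swap comparison these included 0 of 50 genes changed 2-fold and 35 of 50 changed 16-fold. The counts were drawn with the dispersions that edgeR had fitted to these data, so they cannot show whether those were too small. Shares were compared by exact permutation over libraries. Coding sequences are of GENCODE M21 (GRCm38), positions of RefSeq's GRCm38.p6 table, aligned with Biopython 1.88. Receptors were to be named if chosen by at least 5 control or 5 swap cells, or if called by edgeR, which called none. Other named genes were the first 5 in each direction by adjusted p and the listed markers. Klkb1, Ppa1, 2810001G20Rik, Sult1d1, Faim2 and Fxyd2, and the receptors singled out for level, Cd36 or a second OR, were named after their values were seen. The same holds for Olfr1284, Olfr1308 and Olfr1311, called by DESeq2, and for Olfr1288, Olfr1295, Olfr1299 and Olfr1303 in the swap comparison. Members and lists were chosen with earlier results of these data known. Part of the genotype labels is not reported here.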

Additional observations from a re-analysis of the deposited data

How the results depend on the processing

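The share choosing a member stayed lower in swap under every alternative run, with -1.91 to -1.42 percentage points when 1 library was left out. With a replicate block, which the labels do not justify since a number marks no stated batch (the deviations of swap 1 and control 1 from their group means correlated at 0.231 over genes), the difference was -1.66, and edgeR again called 0 members and 0 genes. Without 1 library the second cluster ranged from -1.78 to -1.56 and the number of different members from -10.4 to -7.48. Olfr1303 to Olfr1318 ranged from -1.45 to -0.63 and Olfr1275 to Olfr1302 from -0.93 to -0.33, with a boundary set after values were seen. Signs changed for the first cluster (-0.038 with an Omp minimum of 3 UMIs, -0.32 without Olfr1271, -0.22 to 0.23 without 1 library), for the UMIs of the chosen member (0 with a minimum of 1 UMI, -0.50 with the OR at 80% of OR UMIs, -5.75 at full depth, -0.25 to 2.75 without 1 library), for the swap marker score (-0.10 to 0.38) and for early OSNs (-0.44 to 0.90). The score of member over other cells stayed positive (0.643 to 0.881). DESeq2 called 5 members and 182 genes in swap against control where edgeR called 0; leaving out 1 library gave 0 to 10 members and 0 to 789 genes, the calls arising when control 1 or control 2 was left out (10 members each), with the lone control assumed to vary like the swap group. In member against other cells, DESeq2 and the swap libraries each called 13 genes where edgeR called 114, and leaving out 1 library gave 52 (control 2) to 140. Olfr1297 turned to 0.70 without control 1 (range -0.87 to 0.70), Nrp2 to -0.067 without control 2 (range -0.067 to 0.28) and Rprm to -0.81, Olig1 to -0.0079 and Klkb1 to -0.090 in the swap libraries. The value of tetOP2 against gg8tTA outside Olfr17 cells ran from 0.31 (chosen OR at 80% of OR UMIs) and 0.96 (at least 10 UMIs) to 1.41. The causes were not tested. With 36 swap cells, shifts of single receptors could not be resolved.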
